A study of Mus musculus with 3 samples.

Results

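The early step of a conditional Oct3/4 knockout in mouse embryonic stem (ES) cells was followed by setting the array of day 1 against the array of day 0, across all 45037 probe sets that are not array controls. These are 2 of the 3 arrays of the series, the other being day 2, and day 2 values are given beside the others here but chose no gene. Both groups were ES cells in which Pou5f1, the gene of Oct3/4, can be removed on demand, and they differ by label only in the day, 0 or 1. The sources used here do not give the strain, the cell line, the number of clones or how the knockout was switched on. ES cells without Oct3/4 are known not to persist as a line, which a conditional allele gets around. Each day was measured once, so every difference describes these arrays, no p-value is given, and the number of arrays limits the precision. The samples used here hold no day 1 culture with an intact gene, so loss of Oct3/4 and a further day of culture or handling cannot be told apart.

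Oct3/4 is a POU-domain transcription factor that binds DNA, often beside Sox2, at the 8-base octamer and keeps the inner cell mass and its ES cells pluripotent. Cells that lose it are known to turn towards trophectoderm, the outer layer of the early embryo that builds the placenta, a fate in which Cdx2 is a central transcription factor. ES cells also make their own signals, among them Nodal and Fgf4, whose genes are known targets of Oct3/4.

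Signals are linear intensities, 1 per probe set, which is a group of short probes for the same transcript. A constant of 56.0, the 40th percentile of the day 0 and day 1 signals, was added before taking log2, and each difference below is day 1 minus day 0 after that step. The constant makes differences of dim genes look smaller than they are. Probe sets with a mean signal of at least the constant over both days were kept, 26910 of 45037 (59.8%), and the brightest one stands for each of 12684 genes. At day 1, 297 genes (2.34%) reached 2-fold above day 0 and 331 (2.61%) 2-fold below it, which is the background for all counts below. Over single probe sets the shares were 2.08% above and 2.32% below. The gene lists below were written with earlier results of these data known. A list's share beside the background can therefore be set in part by the choice of members, and it describes the list only. Scaling the arrays on their ribosomal protein genes instead gave 180 higher and 420 lower genes and shifted the overall median by −0.12. Most genes moved little: 10575 (83.4%) stayed within 1.5-fold, and the median over all genes was 0.05. The lower side reached further, with 59 genes past 4-fold against 4 on the higher side. In 92 of the 297 higher genes the day 0 signal was below the constant, and in 89 of the 331 lower genes the day 1 signal was. Error can be read here only from how probe sets for a common gene disagree, with a pooled SD of 0.30 over 5901 genes, 0.39 among the dimmest 25% of them and 0.23 among the brightest. This spread leaves out differences between cultures and between hybridisations.

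**Figure D1:**
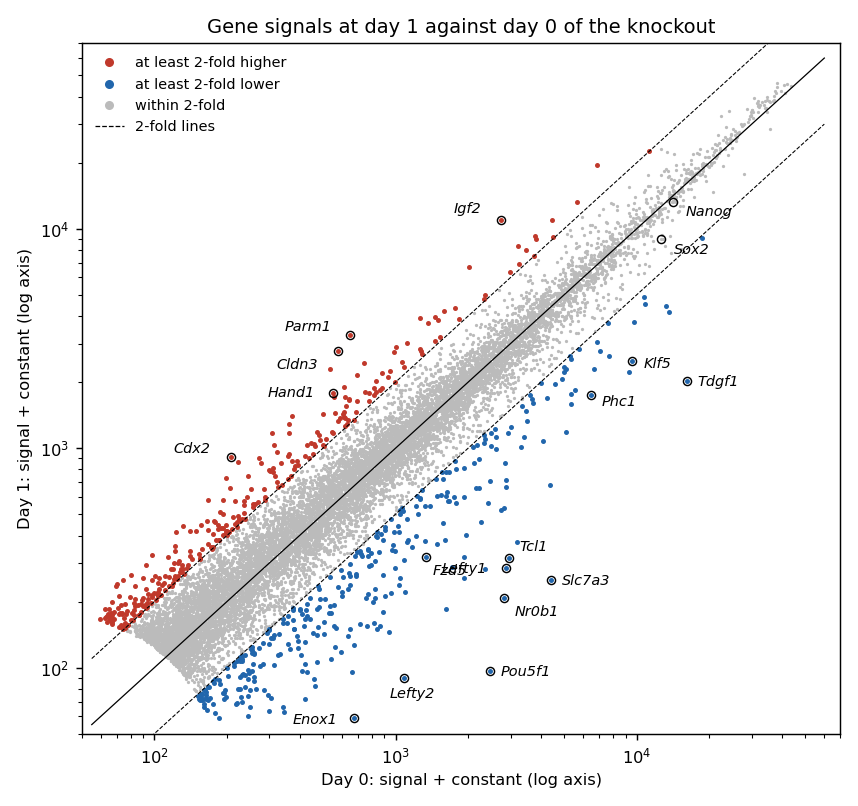
Each point is a gene, with its day 0 signal plus the constant on the x axis and its day 1 signal plus the constant on the y axis, both log axes, from 1 array each. Red points (297) are at least 2-fold higher at day 1 and blue points (331) at least 2-fold lower, and Pou5f1, Slc7a3 and Tdgf1 lie far below the diagonal while Nanog and Sox2 stay between the dashed 2-fold lines.

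Pou5f1 itself, measured by a single probe set, had signals of 2400.5 at day 0 and 40.8 at day 1. That was a difference of −4.67, or 25.4-fold after the constant, the largest in the table in either direction, and it goes with the day labels. In RNA from a whole culture, fewer cells with a transcript and less of it per cell cannot be told apart. The deleted part of the gene is unknown here, and so is whether the probe set lies inside it. Some markers of ES cells were bright at both days and within 2-fold: Sox2 was at 12564 at day 0 and 8923 at day 1, Nanog at 14074 at day 0 and 13258 at day 1 and Dppa5a at 35757 at day 0 and 28538 at day 1. Others on the marker list were lower at day 1 but above the constant. Tdgf1 was at 16081 at day 0 and 1970.1 at day 1, and Fgf4 at 3253 and 958. Esrrb was at 4927.5 at day 0 and 2169 at day 1, and Zfp42 at 18657 and 9069. Defining fibroblast genes, which would mark feeder cells, were dim in part, with Col1a1 at 36.2 at day 0 and 33.8 at day 1, Col3a1 at 57.3 and 5.4, and Dcn at 8.9 and 7.3. Others on the list were above the constant, among them Thy1 at 399.8 at day 0 and 275 at day 1 (−0.46), Pdgfrb at 60.8 at day 0 and 144 at day 1 (0.78) and Loxl1 at 266 at day 0 and 180.5 at day 1 (−0.44). Of the 20 listed fibroblast markers 19 had a probe set, and their summed signal was 1831 at day 0 and 1818 at day 1. Among the 8 of them above the constant 0 passed 2-fold in either direction.

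The genes furthest below day 0 after Pou5f1 included the transporter gene Slc7a3, the nuclear receptor gene Nr0b1 and the Nodal inhibitor gene Lefty2. Slc7a3, which carries cationic amino acids such as arginine into the cell, had signals of 4361 at day 0 and 195 at day 1, a difference of −4.14. Nr0b1, an orphan nuclear receptor of the pluripotency network also called Dax1, stood at 2759 at day 0 and 151 at day 1 (−3.76). For both genes the day 1 signal was still above the constant. Enox1, which encodes a cell-surface oxidase, went furthest into the background, at 614 at day 0 and 2.8 at day 1, so its −3.51 is set by the constant. Tcl1, a co-activator of the kinase Akt, had 2894 at day 0 and 260.0 at day 1 (−3.22). Jam2, a junctional adhesion molecule, is the best supported of these, since all 5 of its kept probe sets lay between −3.13 and −2.02. The neuropeptide precursor gene Trh was at −3.06, at 2303 at day 0 and 227 at day 1.

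Zfp296, a zinc finger gene of ES cells, had signals of 1652 at day 0 and 232 at day 1 (−2.57), and Epas1, which encodes the hypoxia-inducible factor HIF-2 alpha, 1862 at day 0 and 265 at day 1 (−2.58). Another probe set of Epas1 gave −1.67, so its size differs between probe sets while its direction does not. Bnc2, a zinc finger gene, was at −2.78 and the homeobox gene Gbx2 at −2.49, both with day 1 signals below the constant (39.8 and 26.5). Cdyl2, a chromodomain gene, was at −2.39 by its brightest probe set and at −1.82 and −0.25 by its others.

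Manba, the lysosomal beta-mannosidase, had signals of 4329.6 at day 0 and 625 at day 1 (−2.69), and Ltbp4, a matrix protein that binds latent TGF-beta, 2759.5 at day 0 and 477 at day 1 (−2.40). Nphs1, the gene of nephrin, stood at −2.69, Ppp1r1a, an inhibitor of protein phosphatase 1, at −2.47, Lrrc2 at −2.91 and Dusp27 at −2.40. Gpa33, a surface antigen, was at −2.55 with a day 1 signal of 15.9. For Dpp4, a cell-surface peptidase, the probe sets disagreed: the brightest gave −2.47 (289.9 at day 0 and 6.6 at day 1) and the other 0.08. Of the lowest 25 genes 2 carry clone names and are not described, 17 rest on a single probe set, and 7 had a day 1 signal below the constant, so their order among themselves is not resolved.

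The genes furthest above day 0 were led by a mucin-like gene, a claudin and Cdx2. Parm1, which encodes a mucin-like membrane protein, had signals of 589 at day 0 and 3222 at day 1, a difference of 2.34, and its other probe set gave 2.16. Cldn3, a sealing protein of tight junctions, stood at 523 at day 0 and 2720.2 at day 1 (2.26), with its other 3 probe sets between 1.77 and 1.99. Cdx2 had 151.5 at day 0 and 856.5 at day 1 (2.14), and its second probe set gave 2.91. In these 3 genes every kept probe set was past 2-fold in the same direction. Tinagl1, a secreted matrix protein, had 476.5 at day 0 and 2246 at day 1 (2.11) on a single probe set. Gadd45g, a stress and growth-arrest gene, was at 316 at day 0 and 1352 at day 1 (1.92), and Cited1, a transcriptional co-regulator of the placenta, at 110.4 at day 0 and 527 at day 1 (1.81).

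Hand1, a bHLH factor of trophoblast giant cells, had signals of 494 at day 0 and 1722 at day 1 (1.69), with 1.44 by its other probe set. Esx1, a homeobox gene of the placenta, stood at 258 at day 0 and 979 at day 1 (1.72). The LIM-domain gene Fhl1 was brighter, at 1967.5 at day 0 and 6607.5 at day 1 (1.72), although another probe set gave 0.75. Bhmt, which remethylates homocysteine, was at 682 at day 0 and 2381.5 at day 1 (1.72), and Mogat2, an acyltransferase of fat synthesis, at 142 at day 0 and 672 at day 1 (1.88). Ghr, the growth hormone receptor, was at 1.75, with probe sets from 0.71 to 1.75. The membrane-traffic gene Rab20 was at 1.76 and Ncmap at 1.68.

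Several high genes depended on the probe set or on a dim day 0 signal. Frzb, a secreted Wnt antagonist (1.78), Pdzrn3 (1.77), the collagen genes Col12a1 (1.76) and Col27a1 (1.74) and Crybb3 (1.72) had day 0 signals of 42.0 or less, below the constant, so their sizes are set by it. S100a1, a calcium-binding protein, was at 1.96, and at 0.91 by its other probe set. P2rx4, an ATP-gated channel, was at 1.94, with 0.98 and 1.30 from the others. Hip1, which links clathrin to actin, ranged from 0.05 to 1.83 over 5 probe sets, and Hs3st3b1, a heparan sulphate sulphotransferase, from 0.24 to 1.70 over 3. Stox2 ran from −0.38 to 1.73 over 4, so not even its direction holds across probe sets.

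**Figure D2:**
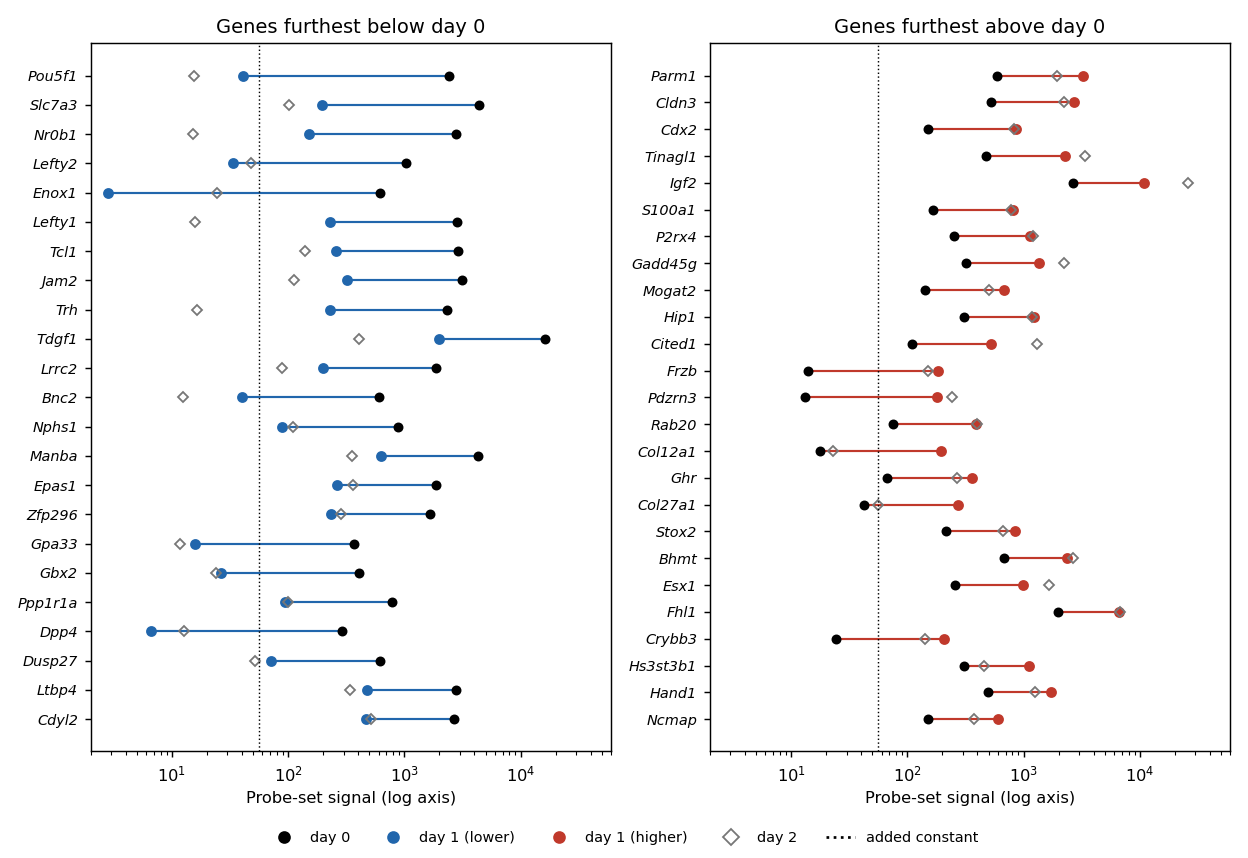
Signals of the genes furthest below (left, 23 genes) and above (right, 25 genes) day 0, on a log axis, at day 0 (black), day 1 (blue or red) and day 2 (open diamonds), from 1 array per day. The dotted line is the added constant of 56.0; the day 1 points of Pou5f1, Lefty2, Enox1, Bnc2, Gpa33, Gbx2 and Dpp4 lie left of it.

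Across all genes called by size, the other probe sets mostly went the same way. Of the 331 lower genes 116 had further kept probe sets, and in 95 of these every other one was also below 0, while in 72 at least 1 other was itself past 2-fold. Of the 297 higher genes 135 had further probe sets, with every other one above 0 in 122 and at least 1 other past 2-fold in 62. In 0 of these genes did another probe set pass 2-fold in the opposite direction. The median over the other probe sets was −1.01 for lower genes and 0.81 for higher genes. No other probe set was past 2-fold in 73 of the 135 higher genes and in 44 of the 116 lower genes. Some of the calls named above and below were within 2-fold under another setting. Among them were S100a1, P2rx4, Hip1, Stox2 and Hs3st3b1, which are all in the highest 25 genes. With the constant doubled, Bmp7, Dab2, Egr1, Eomes, Fgf15, Fgf17, Gata3, Il17rd, Lifr, Meox1, Nkd1, Pax6, Skil, Slc22a18, Sox21, Timp3 and Wnt3a were within 2-fold. With equal ribosomal protein medians the same was true of Cald1, Cldn4, Dab2, Eomes, Fgfr2, Peg10, Sox21 and Timp3. With the mean over all kept probe sets it was true of Bmp7, Bmp8b, Cald1, Dab2, Esrrb, Fgfr2, Hip1, Hs3st3b1, Il17rd, Kit, Lifr, Lrp2, Nkd1, Skil, Slc38a2, Sox21 and Stox2. With probe sets of the suffixes _x_at, _s_at and _a_at left out it was true of Cald1, Dab2, Fgfr2 (0.48), P2rx4 (0.98), S100a1 (0.91) and Stox2.

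**Figure D3:**
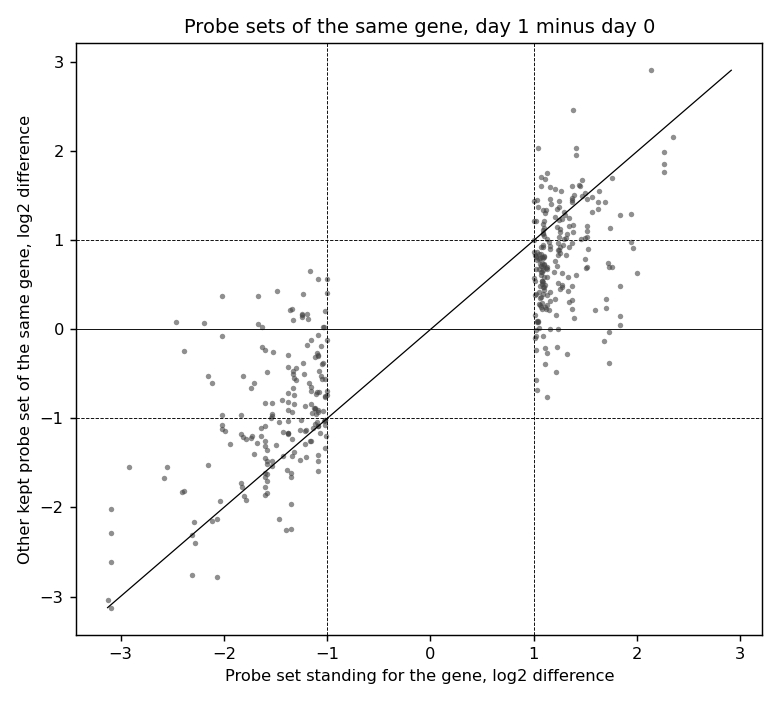
For genes past 2-fold, the log2 difference of the probe set that stands for the gene (x axis) against each other kept probe set of the same gene (y axis), with the line of equality and dashed 2-fold lines. Points gather in the lower left and upper right and none lies beyond the 2-fold line of the opposite direction.

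The 18 promoters on record for the lowest 25 genes and the 22 for the highest 25 were searched for the octamer that Oct3/4 is known to bind. The promoter windows are RefSeq's, build GRCm38.p6, 300 bases long with 250 before the start of the gene and 50 after it. Written ATGCAAAT and searched on both strands, the octamer was in 9 of 252 promoters of lower genes (3.57%) and in 8 of 231 of higher genes (3.46%), beside 153 of 10252 for all measured genes (1.49%) and 532 of 27025 for all genes in the table (1.97%). Among the extremes it was in 1 of the lowest genes, Zfp296, and in 4 of the highest, Cdx2, Gadd45g, Hs3st3b1 and Stox2. It was also in the promoters of Zfp42, an ES cell gene that was lower (−1.04), and Phc2, a Polycomb gene that was higher (1.32). The stretches around the match are shown 5′ to 3′ on the strand of the gene, upstream of its start, with the octamer in capitals, for lower genes first and then for higher genes.
Zfp296, chr7:19577130-19577229 (plus strand): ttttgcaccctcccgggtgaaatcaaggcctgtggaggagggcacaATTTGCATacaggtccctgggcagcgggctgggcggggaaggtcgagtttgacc
Zfp42, chr8:43307142-43307241 (minus strand): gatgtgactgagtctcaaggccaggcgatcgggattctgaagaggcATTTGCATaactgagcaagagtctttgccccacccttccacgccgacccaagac
Cdx2, chr5:147307343-147307442 (minus strand): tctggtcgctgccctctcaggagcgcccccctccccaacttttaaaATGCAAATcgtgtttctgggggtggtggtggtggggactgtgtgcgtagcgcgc
Gadd45g, chr13:51846526-51846625 (plus strand): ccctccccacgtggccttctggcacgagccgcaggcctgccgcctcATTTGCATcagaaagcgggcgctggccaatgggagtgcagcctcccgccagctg
Phc2, chr4:128688577-128688676 (plus strand): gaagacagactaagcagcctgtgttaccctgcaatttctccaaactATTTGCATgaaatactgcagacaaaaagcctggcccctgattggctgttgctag
Counted from the start of the gene, the match begins at position −111 in Zfp296, −186 in Zfp42, −147 in Cdx2, −103 in Gadd45g and −115 in Phc2. It reads ATGCAAAT along the gene in Cdx2 and ATTTGCAT, the reverse complement, in the other 4. A match describes letters in a window and is not a binding site, and these windows hold no distal enhancers.

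In all, 11 patterns were searched in the same windows. ATGCTAAT was in 4 lower (1.59%) and 1 higher gene (0.433%), against 0.751% of measured genes. The looser forms ATGCNAAT, which includes both octamers, and ATTNNCAT, which on the other strand covers ATGCNAAT too, were in 5.56% and 11.5% of lower genes, 3.90% and 8.23% of higher genes, and 2.77% and 8.21% of measured genes. CATTGT, the core that SOX factors bind, was in 11.1% of lower, 10.4% of higher and 9.12% of measured genes. Of 3 patterns that join the SOX core to the octamer with increasing freedom, the stricter ones were in 0 of the lower and 0 of the higher genes, and the loosest was in 1 lower gene, Dennd2c. CCACACCC, a pattern of KLF factors, was in 7.14% of lower, 4.76% of higher and 4.59% of measured genes. The TATA box TATAAA was in 11.5%, 12.6% and 9.01%, and the GC box GGGCGG in 63.1%, 67.5% and 67.7%, in the same order.

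Transcription factors and other regulators of pluripotency ranged from far below their day 0 level to close to it. Of 37 measured members of 39 listed, 13 were at least 2-fold lower (35.1%, against 2.61% of all genes), 0 were higher, and the median was −0.52 against 0.05 for all genes. Besides Pou5f1, Nr0b1, Tcl1 and Gbx2, the lower members included Klf5, a Krüppel-like factor, at 9535.5 at day 0 and 2435 at day 1 (−1.94) and the forkhead gene Foxd3 at 511.5 at day 0 and 95.3 at day 1 (−1.91). Otx2, a homeobox gene of the epiblast, had 1717.5 at day 0 and 509 at day 1 (−1.65), and Zscan10 had 2444 at day 0 and 972 at day 1 (−1.28). Closer to 2-fold were the naive-state genes Esrrb (−1.16), Klf2 (−1.15) and Zfp42 (−1.04), with Zfp42 at 18657 at day 0 and 9069 at day 1. The 3 probe sets of Esrrb ran from −1.26 to 0.65, and their mean of −0.59 is under 2-fold. The list also holds Rex2, entered in error beside Zfp42, whose other name is Rex1, and Rex2 is among the 13 lower members.

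Short of 2-fold lay Dppa3 (−0.86), a maternal factor, and Mybl2 (−0.70), a cell cycle factor. Sox2, the partner of Oct3/4, was at −0.49, the naive factors Tfcp2l1 and Klf4 at −0.52 and −0.43, and Nanog at −0.09. Sall4, a zinc finger factor, was at 0.16 (7974 at day 0 and 8923 at day 1). At day 2 the signals of Sox2, Klf4 and Nanog were 1509.7, 1421 and 4584, each less than at day 1, while those of Klf5 (2470.5) and Gbx2 (23.8) were close to their day 1 values.

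Other genes typical of ES cells were lower in greater number, in a list written with earlier results of these data known. Its share of lower genes can be set in part by that choice. Of 31 measured members of 36 listed, 16 were at least 2-fold lower (51.6%) and 1, the connexin gene Gjb5 (1.12), was higher, with a median of −1.08. Gjb5 was named after its value was seen. Tdgf1, the Nodal co-receptor Cripto, had signals of 16081 at day 0 and 1970.1 at day 1 (−2.99). Ooep, an oocyte and embryo gene, was at 4027 at day 0 and 1028 at day 1 (−1.91). Fbxo15, an early-described Oct3/4 target, was at 13099 at day 0 and 8279 at day 1 (−0.66), within 2-fold.

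In the Nodal pathway the ligands and secreted inhibitors were lower, while the receptors and SMADs stayed within 2-fold. Nodal is a TGF-beta family ligand that signals with Cripto through activin receptors, and Lefty proteins inhibit it. Of 19 measured genes of 24 listed, 7 were 2-fold lower or more (36.8%), 0 were higher, and the median was −0.22. All 7 except Skil act outside the cell: Lefty2 had signals of 1027 at day 0 and 33.5 at day 1 (−3.60), Lefty1 2821 at day 0 and 229 at day 1 (−3.33), Nodal 2209 at day 0 and 406 at day 1 (−2.29), Gdf3 2817 at day 0 and 609 at day 1 (−2.11) and Inhbb, an activin subunit, 1120.0 at day 0 and 299 at day 1 (−1.73), with Tdgf1 as the co-receptor. Second probe sets gave −2.16 for Nodal, −2.15 for Gdf3 and −1.19 for Inhbb. Skil, a nuclear repressor of SMADs, was at −1.02, and at −0.79 as the mean over its probe sets. The SMAD genes included Smad2 (0.39) and Smad3 (0.62).

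For Fgf4, the growth factor ES cells secrete, the ligand was lower while several feedback genes of its ERK pathway were within 2-fold. Fgf4 had signals of 3253 at day 0 and 958 at day 1 (−1.71), with −1.40 and −0.60 from its other probe sets. Etv5, an ETS factor downstream of ERK, was at 6975 at day 0 and 2719.9 at day 1 (−1.34) and Il17rd, an inhibitor of FGF signalling, at 985 at day 0 and 444 at day 1 (−1.06). By contrast the ERK phosphatase gene Dusp6 was at 1791 at day 0 and 1734 at day 1 (−0.05), the Sprouty gene Spry4 at 1478 at day 0 and 1251 at day 1 (−0.23) and Etv4 at 582 at day 0 and 420.4 at day 1 (−0.42). At day 2 these 3 had signals of 187, 260.3 and 14.0. Of 24 measured genes of 27 listed, 7 were lower (29.2%) and 1, the receptor gene Fgfr2 (1.10), was higher, with a median of −0.37. The other lower members were Myc (−1.62), Fgf17 (−1.15), Egr1 (−1.12) and Fgf15 (−1.04), and the last 3 were under 2-fold with the constant doubled.

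Myc, a driver of growth that several pathways control, was low at day 1 alone of the 3 days, with signals of 1165, 341 and 1744 on days 0, 1 and 2. Egr1, an immediate early gene, was also lowest at day 1, with 345.5, 129 and 229 on days 0, 1 and 2. Of 20 measured immediate early and AP-1 genes of 23 listed, these 2 were past 2-fold and lower, 0 were higher, and the median was −0.22. Fos (−0.33), Junb (−0.48), Atf3 (−0.62), Jun (0.78), Klf6 (0.83) and Jund (0.90) were all within 2-fold.

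LIF, the cytokine that keeps mouse ES cells in culture, acts through the receptors Lifr and Il6st and the factor Stat3. Of 19 measured genes of this pathway of 20 listed, 4 were 2-fold lower or more (21.1%), 0 were higher, and the median was −0.41: Gbx2, Klf5, Myc and Lifr. Lifr was at the threshold, with 1498 at day 0 and 721 at day 1, and its other probe sets gave −0.12 and 0.56. Stat3 (−0.05), the feedback gene Socs3 (0.29) and Il6st (−0.59) were within 2-fold.

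**Figure D4:**
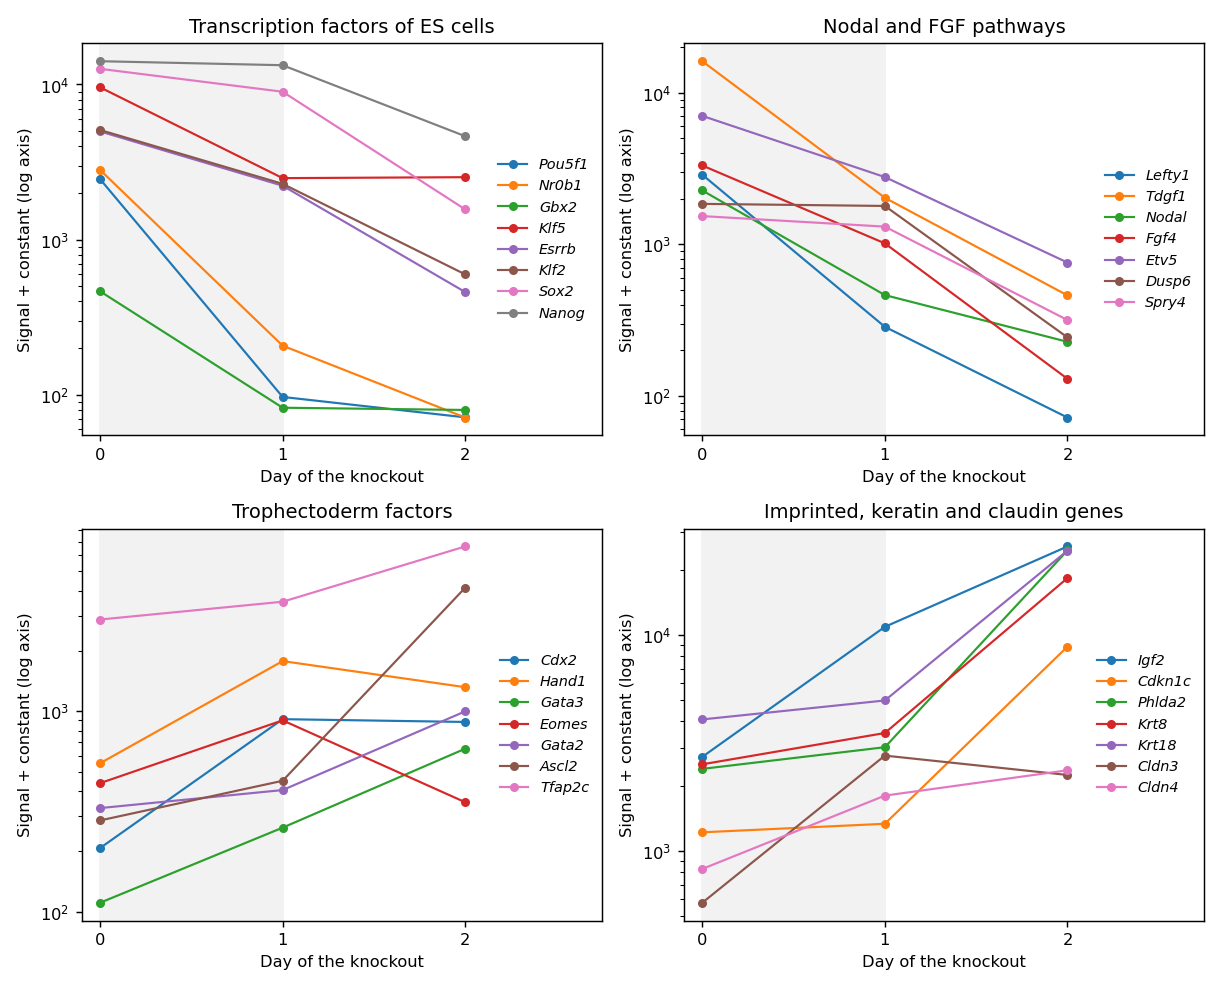
Signal plus the constant on a log axis against the day of the knockout for named genes, from 1 array per day, with the step from day 0 to day 1 shaded. Nr0b1, Lefty1 and Tdgf1 drop most within the shaded step and drop past 2-fold again after it, whereas Sox2, Nanog, Dusp6 and Spry4 drop mainly after it. Cdx2, Hand1 and Cldn3 go up within the shaded step, whereas Ascl2, Krt8, Krt18, Phlda2 and Cdkn1c go up mainly after it.

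Trophectoderm transcription factors were higher in part. Of 24 measured factors of 26 listed, 8 were at least 2-fold higher (33.3%, against 2.34% of all genes) and 0 lower, with a median of 0.71. Beside Cdx2, Cited1, Esx1 and Hand1 these were Msx2, a homeobox gene, at 121 at day 0 and 408 at day 1 (1.39), Gata3 at 54.7 at day 0 and 206 at day 1 (1.25), Sox21 at 322 at day 0 and 745 at day 1 (1.08) and Eomes at 381 at day 0 and 844 at day 1 (1.04). Gata3, a zinc finger factor of trophectoderm, was under 2-fold (0.93) with the constant doubled, its day 0 signal being dim. Eomes, a T-box factor of trophoblast stem cells, and Sox21 had day 2 signals of 295 and 240.5, below their day 0 values. Tead4 (0.03), the factor upstream of Cdx2 in the embryo, Tfap2c (0.29), Gata2 (0.30), Ascl2 (0.66) and Tfap2a (0.83) were within 2-fold. Elf5, a marker of trophoblast stem cells, had signals of 1.8 and 72.6 and did not reach the constant on average.

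The measured genes of the placenta and trophoblast were mostly within 2-fold. Tpbpa, Ctsq, Psg17 and Gjb2 did not reach the constant, and Prl3d1, Prl2c2 and Duox2 had no probe set, so the list says nothing about them. Of 26 measured genes of 33 listed, 6 were higher (23.1%) and 1 lower, with a median of 0.49. Parm1, Cited1, Bmp8b (1.39), Timp3 (1.10), Fgfr2 and Peg10 (1.10) were the higher ones, although the other probe set of Bmp8b gave 0.13. The lower one was Lgals3, the gene of galectin-3, low at day 1 alone with signals of 2788, 804 and 2625 on days 0, 1 and 2. Plac1, an X-linked placental gene, was at 166 at day 0 and 214 at day 1 (0.28) and had 3739 at day 2. The homeobox genes Rhox6 and Rhox9 were at 0.87 and 0.79, and Rhox5, bright throughout, at 0.21.

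Imprinted genes differed from each other within a single chromosome region. Igf2, a growth factor of the fetus and placenta, had signals of 2682 at day 0 and 10891.5 at day 1 (2.00), or 0.63 by its other probe set. Cdkn1c, a cyclin-dependent kinase inhibitor, and Phlda2, a growth-restraining placental gene, lie in the same distal part of chromosome 7 and were at 0.13 and 0.33. Their day 2 signals were 8812 and 24647, against 1286.5 and 2979.8 at day 1. Of 21 measured imprinted genes of 33 listed, 4 were at least 2-fold higher and 0 lower, with a median of 0.39. Besides Igf2 these were Sgce (1.16) and Peg10, which share a cluster and a control region, and Slc22a18 (1.17), whose day 0 signal of 18.8 was below the constant. Peg3 was at 0.89.

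Of 28 measured genes of 30 in the list of epithelial keratins and junctions, 3 were higher (10.7%) and 1 lower, with a median of 0.27. Cldn3, Tinagl1 and Cldn4 (774 at day 0 and 1756 at day 1, 1.13) were the higher genes. The keratins of simple epithelia stayed within 2-fold, with Krt8 at 2474 at day 0 and 3475 at day 1 (0.48), Krt18 at 4026 at day 0 and 4939 at day 1 (0.29), Krt19 at 0.56 and Krt7 at 0.24. The junction genes F11r (0.58), Ocln (0.58) and Dsc2 (0.60) lay just above the highest keratin, and Dsg2 was at −0.55. The other probe sets of Ocln and Dsc2 gave 0.09 and 0.99. At day 2 Krt8 and Krt18 had signals of 18355 and 24605. Jup, the gene of plakoglobin, was lower (1579.6 at day 0 and 577 at day 1, −1.37), while the E-cadherin gene Cdh1 was at 0.01. Among 20 measured actin and contractile genes of 23 listed, 1, Cald1 (1.07), was higher and 0 lower, with Tagln at −0.26, Acta2 at 0.39 and Vim at 0.36.

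Annexin and S100 genes, which encode calcium-binding proteins, gave 2 higher of 12 measured (17 listed) and 0 lower, with a median of 0.39. They were S100a1 and S100a13 (635 at day 0 and 2099 at day 1, 1.64). The other measured S100 genes, S100a6 (0.37), S100a10 (−0.115) and S100a16 (0.525), were within 2-fold. Anxa5 (0.88) and Anxa7 (0.89) were just under 2-fold. Anxa2 was at −0.63 by its brightest probe set and 0.57 by the other.

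**Figure D5:**
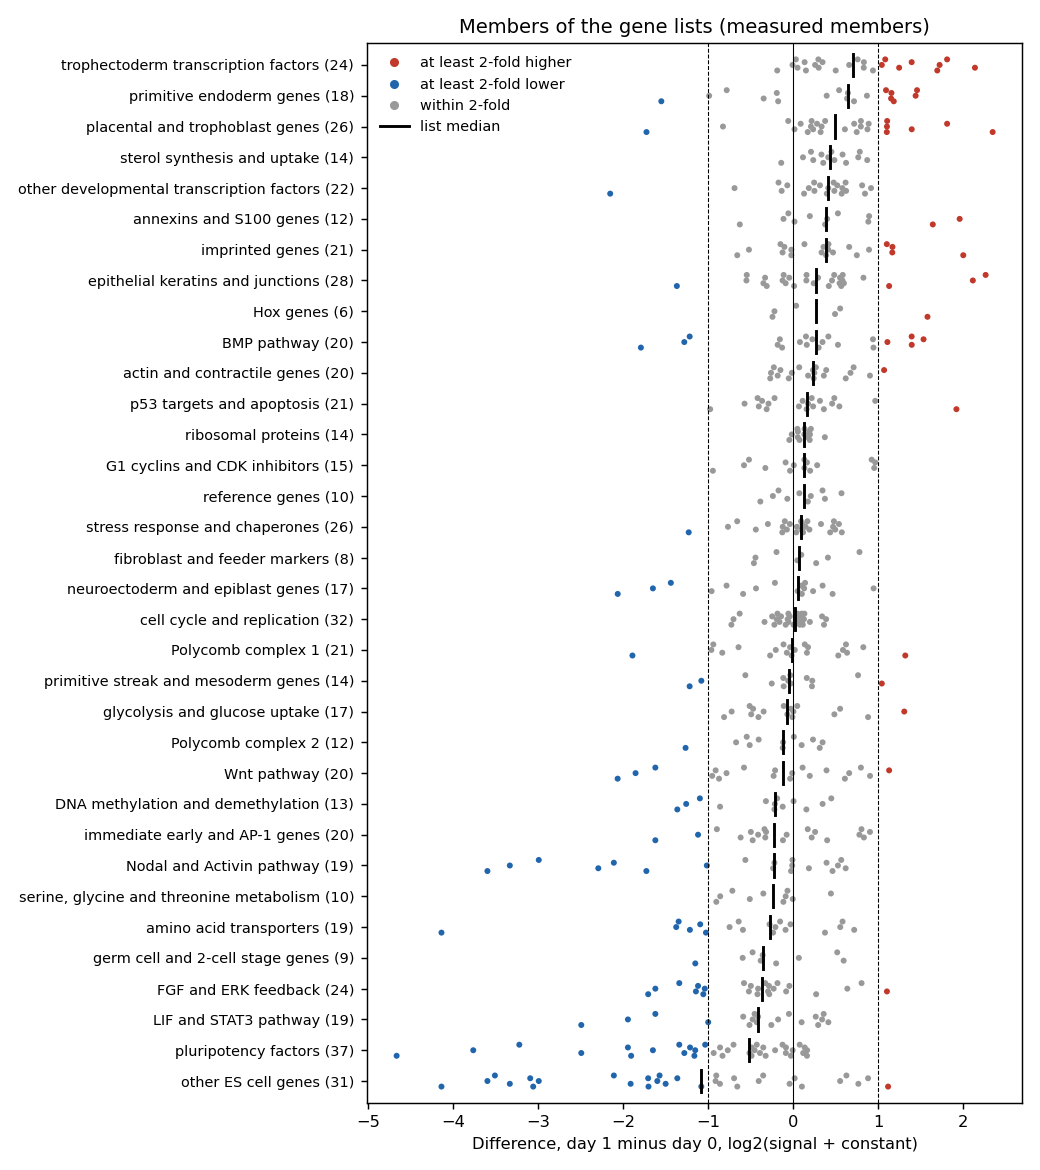
Every measured member of the 34 gene lists, with its log2 difference of day 1 minus day 0 on the x axis, the number of measured members in parentheses and the list median as a black bar. Blue points at −2 and below are members of the ES cell, pluripotency, Nodal, LIF, amino acid transporter, Wnt, neuroectoderm or other developmental lists, and the trophectoderm list has the highest median (0.71).

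Primitive endoderm is the other extra-embryonic layer and makes a thick basement membrane. Of 18 measured genes of 27 listed, 6 were at least 2-fold higher (33.3%) and 1 lower, with a median of 0.64. They comprised matrix genes and their helper, Col4a1 (1061 at day 0 and 2972 at day 1, 1.44), Col4a2 (1.18) and the collagen chaperone Serpinh1 (1.15), together with the endocytic genes Lrp2 (1.15) and Dab2 (1.09) and the transcription factor Gata6. The laminin genes of the same list were within 2-fold on both sides of 0, with Lamb1 at 1137 at day 0 and 2118 at day 1 (0.87) and Lama1 at 709 at day 0 and 329 at day 1 (−0.99). Gata6 had signals of 131 at day 0 and 457.5 at day 1 (1.46), with 1.01 by its other probe set. Dab2 ranged from −0.08 to 1.09 over 3 probe sets. The factors Gata4 (−0.19) and Sox17 (−0.18) were dim, at 76.0 and 86.2 on day 0, and Sox7 did not reach the constant. Apoe, the apolipoprotein gene, was lower (7644 at day 0 and 2570.3 at day 1, −1.55), and Pdgfra was at −0.35.

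Of 14 measured primitive streak and mesoderm genes of 23 listed, 1 was higher (Eomes) and 2 lower, Wnt3a (−1.22) and Meox1 (−1.08), both with day 1 signals below the constant, and the median was −0.05, or 0.22 with the stricter filter on dim probe sets. Mixl1 was at 11.7 and 75.3. Of 17 measured neuroectoderm and epiblast genes of 26 listed, 3 were lower and 0 higher, with a median of 0.05 that turned to −0.02 after quantile normalisation and −0.19 with equal ribosomal protein medians. These were Stmn2, a neuronal microtubule regulator that is bright in these cells (9237 at day 0 and 2165 at day 1, −2.06), Otx2 and the homeobox gene Pax6 (143 at day 0 and 17.2 at day 1, −1.44), whose day 1 signal was below the constant. Only 6 of the 33 Hox genes with a probe set reached the constant, and Hoxb9 (10.8 at day 0 and 143.5 at day 1, 1.58) was the only 1 of the 6 past 2-fold. The day 0 signal of Hoxb9 was below the constant, so it was kept only through its day 1 signal and its size is set by the constant. Of 22 measured other developmental transcription factors of 48 listed, 0 were higher and 1, Zic5 (416 at day 0 and 50.1 at day 1, −2.15), was lower, while the median was 0.40 and 17 of the 22 were above 0. Irx3 was at 0.81 and Runx1 at 0.91.

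In the BMP pathway members differed in both directions. Bmp4, a ligand that supports ES cell self-renewal with LIF, had signals of 4526 at day 0 and 1913 at day 1 (−1.22). The Id genes, direct BMP targets that block bHLH factors, divided: Id1 was at 2399.5 at day 0 and 653 at day 1 (−1.79), Id3 at 1267 at day 0 and 488 at day 1 (−1.28), Id2 at 0.94 and Id4 at 0.94. Smad6, an intracellular inhibitor of the pathway, was high at day 1 alone, with signals of 947, 2845 and 811 on days 0, 1 and 2 (1.53). Of 20 measured genes of 24 listed, 4 were higher (20.0%), namely Smad6, Bmp8b, Msx2 and Bmp7 (1.11), and 3 lower (15.0%), with a median of 0.26. The brightest probe set of Bmp7 had a day 0 signal of 47.1, below the constant, and was kept only through day 1. The other probe set of Bmp7 gave −0.39.

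Wnt genes gave 1 higher and 3 lower of 20 measured (26 listed), with a median of −0.13. Fzd5, a Wnt receptor, had signals of 1276 at day 0 and 262 at day 1 (−2.07) and −2.13 by its second probe set. Notum, a secreted enzyme that inactivates Wnt proteins, was at 767 at day 0 and 171.5 at day 1 (−1.85), and Myc is the third lower member. Nkd1, a feedback inhibitor, was the higher one (24.8 at day 0 and 120.5 at day 1, 1.13), with 0.28 by its other probe set. The day 0 signal of Nkd1 was below the constant, so it was kept only through its day 1 signal. The feedback gene Axin2 was at 252 at day 0 and 519 at day 1 (0.90), and the Wnt inhibitor Dkk1 at 0.39.

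Few Polycomb genes passed 2-fold. In complex 1 the share was 4.76% higher and 4.76% lower, 1 gene each way, against 2.34% and 2.61% of all genes. With so few genes no pattern of the complexes is read from them. Of 21 measured genes of Polycomb repressive complex 1, of 23 listed, Phc1 was lower and Phc2, its paralogue, was higher: Phc1 had signals of 6401 at day 0 and 1684 at day 1 (−1.89) and Phc2 825 at day 0 and 2140.3 at day 1 (1.32), with 1.07 by its second probe set. The catalytic subunit gene Rnf2 was at −0.64, Ring1 at 0.17, Kdm2b, which recruits a variant complex to CpG islands, at −0.96, and Mga at −0.94. Of the 12 genes of complex 2, all measured, 1 was lower (8.33%) and 0 higher. That was Eed, the subunit that reads the histone mark, at 10821 at day 0 and 4464 at day 1 (−1.27), whereas Suz12 (−0.51), Mtf2 (−0.55), Jarid2 (−0.41) and the methyltransferase gene Ezh2 (−0.12) were within 2-fold. The list medians were −0.02 and −0.12.

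In DNA methylation, 3 of 13 measured genes of 16 listed were lower (23.1%) and 0 higher, with a median of −0.22. Dnmt3l, a co-factor of the de novo methyltransferases, had signals of 9666 at day 0 and 3721.5 at day 1 (−1.36). Tet2, a demethylating dioxygenase, was at 715 at day 0 and 266 at day 1 (−1.26), with −1.47 by its other probe set, and Zfp57, which protects imprints, at 851 at day 0 and 368 at day 1 (−1.10). Tet1 (−0.22) and Dnmt3a (−0.32) were within 2-fold at day 1 and had day 2 signals of 1638 and 449, against 5374 and 1138. Dnmt1 was at 0.00 and Dnmt3b at 0.34.

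Amino acid transport was lower beyond Slc7a3. Of 19 measured transporters of 20 listed, 6 were 2-fold lower or more (31.6%), 0 were higher, and the median was −0.28. They were Slc1a3, a glutamate transporter (−1.38), Slc6a15 (−1.35), Slc7a7 (2558 at day 0 and 1069 at day 1, −1.22), Slc7a5, the large neutral amino acid carrier (3283 at day 0 and 1507 at day 1, −1.09), and Slc38a2, a glutamine carrier (7521 at day 0 and 3662 at day 1, −1.03, −0.68 as the mean over its probe sets). Atf4, the transcription factor that controls many of these genes, had 8179.9 at day 0 and 4781 at day 1 (−0.77), with −0.87 by its other probe set. Its known targets Asns (−0.66), Phgdh (−0.91), Shmt2 (−0.86) and Psph (−0.72) were likewise below 0 but within 2-fold, and Chac1 (1059 at day 0 and 419.6 at day 1, −1.23) was past it. Other known targets were above 0 or close to it, with Aldh1l2 at 0.44, Ddit3 at 0.17 and Trib3 at −0.12. Whether Atf4 sets any of these values was not tested. Of 10 measured serine, glycine and threonine genes of 13 listed, 0 passed 2-fold in either direction with a median of −0.23.

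Of 17 measured glycolysis genes of 19 listed, 1, the hexokinase gene Hk1, was higher and 0 lower, with a median of −0.07. Hk1 was high at day 1 alone, with signals of 1711, 4311 and 2058 on days 0, 1 and 2, and 1.31 was matched by 1.29 from its second probe set. Its relative Hk2 was at −0.81, and the lactate dehydrogenase genes stood apart, with Ldha at −0.49 and Ldhb at 0.88 (signals of 5067, 9371 and 5254 on days 0, 1 and 2). None of 14 measured sterol genes of 18 listed passed 2-fold, with a median of 0.43 and 13 of the 14 above 0. Hmgcs1 was at 0.76, Fdps at 0.62 and Sc5d at 0.87, and Sqle (−0.14) was the member below 0. Of 26 stress and chaperone genes, all measured, 0 were higher and 1, Chac1, was lower, with Hspa1a at 0.57, Hspa5 at 0.47 and Ddit3 at 0.17.

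Cell division genes stayed near day 0. Of 32 measured cell cycle and replication genes of 33 listed, 0 passed 2-fold in either direction, from Pola1 at −0.73 to Cdc6 at 0.39, with a median of 0.02 that was −0.03 after quantile normalisation and −0.11 with equal ribosomal protein medians. Mki67 was at 0.36, Pcna at 0.08 and Ccna2 at 0.10. The 15 measured G1 cyclins and inhibitors of 16 listed had 0 past 2-fold, with Cdkn1a, the p21 gene, at 727 at day 0 and 1472 at day 1 (0.96), Rb1, the retinoblastoma gene, at 0.95 and Ccnd2 at −0.95. Among 21 measured p53 and apoptosis genes of 26 listed, 1, Gadd45g, was higher and 0 lower, with Mdm2 at 0.31 and Perp at −0.98. Of 9 measured germ cell and 2-cell stage genes of 16 listed, 1, the receptor gene Kit (−1.15), was lower. None of 14 ribosomal protein genes and none of 10 reference genes passed 2-fold, with medians of 0.13 and 0.12. With probe sets of the suffixes _x_at, _s_at and _a_at left out the first was −0.06, and with equal ribosomal protein medians the second was −0.01.

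The later step, day 2 against day 1, had 200 genes past 2-fold upward (1.58%) and 401 downward (3.16%) of the same 12684. These genes were kept by their day 0 and day 1 signals. Genes dim on both days and bright only at day 2 are left out, so the upward and downward counts cannot be weighed against each other. The later step shares the day 1 array with the early step, so the values are set side by side without a measure of likeness. Trophectoderm factors had a median of 0.71 in the early step and 0.81 in the later one, and pluripotency factors −0.52 and −0.70. Actin and contractile genes had 0.24 and 0.83, with 8 of 20 at least 2-fold higher in the later step. Primitive endoderm genes had 0.64 and −0.12, and FGF and ERK feedback genes −0.37 and −0.86. Whether any of these pairs differ beyond array error was not tested, since each day has 1 array.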

How the data were processed

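RNA of conditional Oct3/4 knockout mouse ES cells was hybridised to 1 array per day (days 0, 1 and 2). The deposited values are linear MAS5 intensities per probe set, per the submitters' processing notes, with no detection calls used here. Before scaling, the median signal was 83.5 at day 0 and 92.5 at day 1, and the 2% trimmed means were 496.74 and 496.7. Each array was then scaled to the mean of the trimmed means of the 3 arrays. This hardly changes day 1 relative to day 0. The 64 array controls were left out. Of 45037 probe sets, 34945 name 1 gene in the platform annotation, 932 several and 9160 none, and 34741 matched the RefSeq table by Entrez identifier, with 0 symbols changed. Filter, constant and gene rule stand in the report. With 1 array per group no test was run. The comparison, the 34 gene lists and the genes to be named were chosen with earlier results of these data known. Genes could be named from this set, of which not all are described: Pou5f1, the 25 lowest and 25 highest genes (clone names counted only), key members of each list whatever their value, up to 8 others per list by size, and the cell type markers. Alternatives changed the constant, the filter, the scaling and the probe set of a gene. The calculation was tested on simulated data. Python 3.11.15, numpy 2.4.6, pandas 2.3.3 and matplotlib 3.10.9 were used.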

Additional observations from a re-analysis of the deposited data

How the results depend on the processing

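The count of higher genes (297) was 146 with the constant at 2 times its value, 190 with a 60th percentile filter and 180 with equal ribosomal protein medians, and 246, 230, 263, 373 and 441 after quantile normalisation, with the mean over probe sets, with probe sets of the suffixes _x_at, _s_at and _a_at left out, without a filter and with the smaller constant. The count of lower genes (331) ran from 227 to 423. List medians were held against the probe-set spread of single genes, which is a wide yardstick for a median over many genes. Of 272 list medians under these alternatives, 267 moved by less than that spread. The other 5 were −1.64 for other ES cell genes and −0.32 for fibroblast markers without the named probe-set kinds, 0.98 for primitive endoderm and −0.11 for Hox genes with the stricter filter, and −0.078 for Hox genes with equal ribosomal protein medians. Medians of 9 lists turned sign under at least 1 alternative. Of 120 named genes past 2-fold, 89 stayed past it under every alternative that could measure them. Stox2 turned to −0.027 without the named probe-set kinds. The cause was not tested. No paired analysis was possible because each day has 1 array. Probe sets of a gene differed more among dim genes (SD 0.39) than among bright ones (0.23).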

Other observations

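Probe sets that the annotation pairs with no gene numbered 3376 above the constant, of which 78 (2.31%) were at least 2-fold higher at day 1 and 65 (1.93%) at least 2-fold lower. The lowest had signals of 1663 at day 0 and 126 at day 1 (−3.24). The highest had 28.5 at day 0 and 244 at day 1 (1.83).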
